A study of Mus musculus with 6 samples.

Results

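The IFIT and IFITM interferon-induced protein genes were followed in macrophages sorted from the mouse colon. The set holds 8 genes, Ifit1, Ifit2, Ifit3, Ifit3b, Ifitm1, Ifitm2, Ifitm3 and Ifitm6. They were taken by symbol, with earlier results of these data known, from a deposited table of 25124 gene rows, and all 8 had a row. RNA-seq libraries were made from 3 wild type samples and 3 samples with macrophage-specific overexpression of E4BP4, a transcription factor of the basic leucine zipper class whose gene is Nfil3. All 6 came from C57BL/6 mice aged 8 weeks. Every mouse, controls included, had colitis induced by dextran sulfate sodium, which damages the epithelium of the colon. It was given in the drinking water at 2.0% for 7 days, plain water followed for 7 days, and colons were collected on day 14, so no group without colitis is part of the comparison. The promoter that drives the transgene is not given in the labels. The genotype field of transgenic replicates 2 and 3 ends in another digit than that of replicate 1, while the titles of all 3 name E4BP4, and the titles were followed. Whether each library stands for its own mouse is not stated in the labels. The p-values therefore reflect the spread of these 6 libraries, and that spread may be technical.

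Interferons bind receptors on the cell surface, the receptors activate JAK kinases, and these phosphorylate transcription factors, among them STAT2. STAT2 and IRF9 are parts of a complex that binds a DNA motif called the interferon-stimulated response element (ISRE) near many antiviral genes. IFIT proteins are cytoplasmic, are built of tetratricopeptide repeats, and bind viral RNA or parts of the translation machinery. IFITM proteins are small membrane proteins that hinder the fusion of viruses with cell membranes. IFIT genes are known for very low expression without interferon and steep induction by it, whereas several IFITM genes are also expressed at a steady level. Macrophages of the gut meet microbial products continuously, and both families are part of their antiviral equipment.

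In the transgenic libraries, the IFITM transcripts Ifitm1 and Ifitm2 were lower, at 70.6% and 72.1% of the wild type mean, while Ifitm3, from the same gene cluster, was at 104%. Of the IFIT transcripts, Ifit2 was higher by 1.31-fold. Ifit1 and Ifit3 were 1.30- and 1.23-fold higher in mean, with no overlap between groups, but did not pass the test. Ifit3b and Ifitm6 overlapped between groups. Values are TPM, a relative transcript level scaled for transcript length and depth. A fold change is the difference of group means of log2(TPM + 1), with its standard error (SE), and a gene is called at a Benjamini-Hochberg adjusted p below 0.05 from limma, fitted to all 12633 tested genes.

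By this test 1 of 8 members was higher (Ifit2) and 2 were lower (Ifitm1 and Ifitm2). Over all tested genes 8.71% were called higher and 13.2% lower. Groups did not overlap for 3 members that were higher (Ifit1, Ifit2 and Ifit3), where 17.1% of all tested genes were higher without overlap, and for the same 2 that were lower, where 22.3% were. With so few members these shares are not read as a result about the families. The median log2 fold change was 0.29 over the 4 IFIT genes, -0.24 over the 4 IFITM genes and -0.01 over all tested genes. All 8 members passed the filter, a group mean of 1 TPM or more, Ifit3b through the transgenic group alone.

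**Figure D1:**
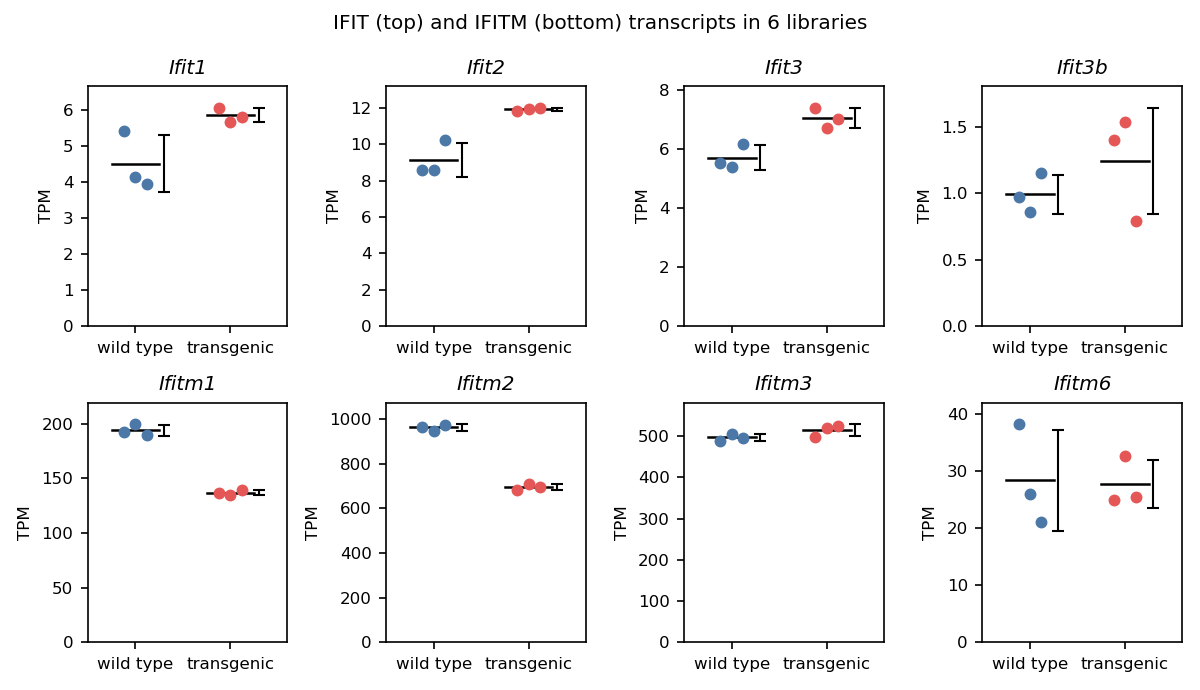
TPM of each of the 8 genes (vertical axes, each from 0) in 3 wild type (blue) and 3 transgenic (red) libraries; the line is the group mean and the bar is ± 1 SD. Ifitm1 and Ifitm2 are lower in all 3 transgenic libraries, Ifit1, Ifit2 and Ifit3 are higher in all 3, and the groups of Ifit3b, Ifitm3 and Ifitm6 overlap.

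The libraries held 17.25 to 18.90 M stated reads, and the reads recovered in genes numbered 13.97 to 15.06 M. Any pair of libraries differed by more than counting noise: chi-square divided by its degrees of freedom was 2.06 to 2.75 inside a group and 15.01 to 15.91 between groups. Nfil3, the targeted gene, had 117, 119.9 and 119 TPM in the wild type libraries against 133, 134 and 141 TPM in the transgenic ones. Its log2 fold change was 0.19 ± 0.029 SE (limma adjusted p = 0.00261). All 12 macrophage markers were detected, and their summed level was 11646 to 11770 TPM in wild type and 12101 to 12198 TPM in transgenic libraries. C1qa, C1qb and C1qc made most of that sum, and single macrophage markers moved in both directions. Markers of other cell types were present too, and stand beside the results they move with. In bulk RNA, fewer cells of a type and less RNA per cell cannot be told apart.

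The 2 families stood at very different levels. Averaged over the 6 libraries, Ifitm2 was at 828 TPM and ranked 63 of 19512 rows above 0. Ifitm3 was at 506 TPM (rank 130) and Ifitm1 at 166 TPM (rank 497). These 3 were thus among the abundant transcripts of the cells. Ifitm6 was at 28.03 TPM (rank 3136), Ifit2 at 10.5 TPM (rank 6361), Ifit3 at 6.39 TPM (rank 8102), Ifit1 at 5.19 TPM (rank 8703) and Ifit3b at 1.12 TPM (rank 12105). Neighbours in this order did not overlap within a group, except Ifit3 and Ifit1, whose wild type values ran from 5.41 to 6.19 and from 3.96 to 5.43 TPM. The 4 IFITM genes together made 98.7% to 98.9% of the summed TPM of the members in wild type and 98.0% to 98.2% in transgenic libraries. The summed IFIT level was 19.0 to 21.5 TPM in wild type and 25.6 to 26.7 TPM in transgenic libraries, while the summed IFITM level was 1678 to 1685 TPM and 1341 to 1394 TPM. The first sum was higher and the second lower in every transgenic library.

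The IFIT genes lie together on chromosome 19 (mm10), over 98.9 kb, all 4 on the plus strand. In order they are Ifit2 (NM_001355262, 34551088 to 34576534), Ifit3 (NM_010501, 34583529 to 34588982), Ifit3b (NM_001005858, 34607957 to 34613401) and Ifit1 (NM_008331, 34640889 to 34650009).

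Ifit1 encodes the IFIT protein best known for binding viral RNA that lacks the methylation of host caps. Its level was 5.43, 4.15 and 3.96 TPM in the wild type libraries against 6.07, 5.68 and 5.83 TPM in the transgenic ones, from 131 to 210 reads each. The highest wild type library was replicate 1, and it lay just under the lowest transgenic one. The difference was 0.32 ± 0.111 SE on the log2 scale, with a 95% interval of 0.07 to 0.58, and did not pass the test (limma adjusted p = 0.0766). Without wild type replicate 1 it was 0.44 and was called (limma adjusted p = 0.0169). It was also called by limma-voom on the recovered reads, an alternative chosen after seeing the data (adjusted p = 0.0263), by which 29.4% of tested genes were called in either direction.

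Ifit2, whose product binds RNA and is linked to cell death, is the member with the highest IFIT level. The wild type libraries had 8.58, 8.58 and 10.2 TPM against 11.8, 11.9 and 12.0 TPM in the transgenic ones, from 401 to 606 reads each. The transgenic libraries lay close together and above all wild type ones. The difference was 0.36 ± 0.077 SE, with a 95% interval of 0.18 to 0.53 (limma adjusted p = 0.0140). The call held in all 15 alternatives run, with adjusted p-values up to 0.0491. In the authors' deposited table, which was made by another route, the log2 fold change of Ifit2 was 0.36 (adjusted p = 0.000383).

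Ifit3, known as a binding partner of other IFIT proteins, had 5.55, 5.41 and 6.19 TPM in the wild type libraries against 7.41, 6.73 and 7.02 TPM in the transgenic ones. Every transgenic library was above every wild type one. The difference was 0.26 ± 0.079 SE, with a 95% interval of 0.08 to 0.45, and lay at the threshold (limma adjusted p = 0.0502). It was called in 5 of 15 alternatives, with adjusted p-values of 0.0338 to 0.0479. Ifit3b, a close copy of Ifit3, had 0.972, 0.856 and 1.15 TPM in the wild type libraries against 1.40, 1.54 and 0.787 TPM in the transgenic ones. Transgenic replicate 3 was the lowest of all 6, and the groups overlapped. With 21 to 38 reads per library, its difference of 0.16 ± 0.172 SE had a 95% interval of -0.24 to 0.55 (limma adjusted p = 0.565), so a change of the size seen in Ifit2 was not detectable at this depth.

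Levels of Ifit3 and Ifit3b rest in part on sequence that the 2 transcripts share. Of the 50-base windows of the Ifit3 transcript 51.2% also occurred in Ifit3b, and of those of Ifit3b 44.5% occurred in Ifit3. Read length and the treatment of reads that map to several places were not given in the sources used here, so how reads were split between these genes is uncertain. Ifit2 shared no such window with another gene, and Ifit1 shared 7.14%, mostly with Ifit1bl2. The other rows of the family were low. Ifit1bl1 averaged 2.58 ± 0.318 TPM in wild type against 3.02 ± 0.519 TPM in transgenic samples (SD, n = 3 each), with a limma adjusted p of 0.406. Ifit1bl2 was at 0.293 and 0.237 TPM, under the filter.

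DNA ahead of the IFIT genes is shown because the ISRE is the element through which the family is known to respond to interferon. Windows ran from 250 bases before to 50 bases after each RefSeq start (GRCm38.p6), and all 8 members matched. The letters searched on both strands were 2 copies of GAAA with any 2 bases between them, the core of the ISRE, found in 3.44% of 32851 such windows. A longer form, the core followed by CT, was found in 0.271%. The runs printed leave out transcribed bases, read 5′ to 3′ on the strand of the gene, come from RefSeq, and have the core in capitals. It lies on the opposite strand and so reads as 2 copies of TTTC.
Ifit1 (chr19:34640744-34640870, plus strand): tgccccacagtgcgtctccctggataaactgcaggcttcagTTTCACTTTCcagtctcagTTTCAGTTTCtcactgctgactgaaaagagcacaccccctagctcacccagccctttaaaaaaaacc
Ifit3 (chr19:34583279-34583528, plus strand): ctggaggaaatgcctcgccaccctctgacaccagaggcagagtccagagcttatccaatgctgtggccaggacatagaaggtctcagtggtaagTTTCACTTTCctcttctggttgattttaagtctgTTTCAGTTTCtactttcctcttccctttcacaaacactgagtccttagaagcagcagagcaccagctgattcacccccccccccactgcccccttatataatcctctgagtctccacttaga
Ifit3b (chr19:34607707-34607956, plus strand): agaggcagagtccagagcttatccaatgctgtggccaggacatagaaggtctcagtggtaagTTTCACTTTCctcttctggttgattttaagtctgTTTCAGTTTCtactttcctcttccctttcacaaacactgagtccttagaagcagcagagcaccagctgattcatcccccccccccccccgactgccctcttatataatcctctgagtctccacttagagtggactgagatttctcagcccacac

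Ifit1 held 2 cores, at 104 to 95 and at 85 to 76 bases before its start, each within the longer form. Its window also covers the start of Ifit1bl2, which runs the other way. Ifit3 held 2 cores, at 156 to 147 and at 122 to 113 bases before its start, and Ifit3b held the same letters at 188 to 179 and at 154 to 145. For both genes, 1 of the 2 cores lay in the longer form. The windows of Ifit3 and Ifit3b matched in 76.6% of 282 alignment columns. Ifit2 has 2 RefSeq starts, and neither window held the core. A match is a description of letters, and a window without one says nothing of the factor. Thus 3 of the 4 IFIT genes had the core close to the start.

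The IFITM members lie on chromosome 7 (mm10), over 62.1 kb. Ifitm2 (NM_030694, 140954839 to 140955961, minus strand) and Ifitm1 (NM_001360727, 140968028 to 140969827, plus strand) lie next to each other. Ifitm3 (NM_025378, 141009590 to 141010744) and Ifitm6 (NM_001033632, 141015812 to 141016892), both on the minus strand, follow.

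Ifitm1, which acts mainly at the cell surface, had 193, 199.6 and 190.1 TPM in the wild type libraries against 137, 135 and 139 TPM in the transgenic ones, from 922 to 1422 reads each. The 3 transgenic libraries were close together and far below all wild type ones. Ifitm1 fell by 0.50 ± 0.027 SE on the log2 scale, with a 95% interval of -0.56 to -0.44 (limma adjusted p = 1.64e-05), which is a ratio of wild type to transgenic means of 1.42. Ifitm2, whose product sits in late endosomes and lysosomes, had 966, 947 and 974 TPM in the wild type libraries against 680.3, 708 and 694 TPM in the transgenic ones, from 5419 to 7617 reads each. Again no transgenic library came near a wild type one. Ifitm2 fell by 0.47 ± 0.019 SE, with a 95% interval of -0.52 to -0.43 (limma adjusted p = 3.64e-06), a ratio of 1.39. Both falls were called in all 15 alternatives. In the authors' deposited table the log2 fold changes were -0.46 for Ifitm1 (adjusted p = 3.35e-17) and -0.51 for Ifitm2 (adjusted p = 9.99e-106).

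Ifitm3, the family member best known for restricting influenza virus, had 488, 506 and 496 TPM in the wild type libraries against 499, 519.5 and 525 TPM in the transgenic ones. The lowest transgenic library lay within the wild type range. The difference was 0.05 ± 0.024 SE, with a 95% interval of -0.01 to 0.11 (limma adjusted p = 0.184). On the linear scale the interval runs from -0.388% to 7.66%, so a fall like that of Ifitm1 or Ifitm2 lies outside it. The sign turned with the authors' log2 values (-0.00), and with upper-quartile scaling Ifitm3 was called higher (0.09, limma adjusted p = 0.0323), as were 11.3% of tested genes. Ifitm6, expressed mainly in myeloid cells, had 38.2, 25.9 and 21.1 TPM in the wild type libraries against 24.96, 32.6 and 25.5 TPM in the transgenic ones. Wild type replicate 1 was the highest and replicate 3 the lowest of all 6. The difference was -0.00 ± 0.197 SE, with a 95% interval of -0.46 to 0.45 (limma adjusted p = 0.993). Without wild type replicate 1 it was 0.22 and not called (limma adjusted p = 0.299).

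Because Ifitm1 and Ifitm2 fell while Ifitm3 did not, ratios within a library were formed after these values were seen. The ratio of Ifitm2 to Ifitm3 was 1.98, 1.87 and 1.96 in the wild type libraries against 1.36, 1.36 and 1.32 in the transgenic ones. Means were 1.94 ± 0.0578 and 1.35 ± 0.0247 (SD, n = 3 each; exact two-sided permutation test, p = 0.1, the smallest that 3 against 3 libraries allow). The ratio of Ifitm1 to Ifitm3 was 0.391 ± 0.00663 and 0.266 ± 0.00788 (SD, n = 3 each; same exact permutation test, p = 0.1). For both ratios the groups did not overlap, which followed from the values that led to them, so these p-values add no support. Ifitm2 to Ifitm1 gave 4.96 ± 0.194 and 5.07 ± 0.162 (SD, n = 3 each; exact permutation p = 0.6), with overlapping groups. In the summed IFITM level the share of Ifitm2 was 57.2% in wild type and 50.5% in transgenic libraries, and that of Ifitm3 was 29.5% and 37.5%. A ratio within a library shows unequal change, and not that 1 of the genes was constant.

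Shared sequence touches the Ifitm2 value most. Of the 50-base windows of the Ifitm2 transcript 48.5% occurred in another gene, 36.1% in Gm45717 and 3.30% in Ifitm3. Gm45717 is an annotated gene whose exons overlap 268 of 627 exon bases of Ifitm2 on the same strand. For Ifitm1 the share was 10.4%, for Ifitm3 10.02% and for Ifitm6 0. The part of shared sequence in the fall of Ifitm2 was not tested. Of the family's other rows, Ifitm5, known for its role in bone, averaged 9.41 ± 0.980 and 9.28 ± 2.14 TPM (SD, n = 3 each), with a limma adjusted p of 0.895. Ifitm10 was at 0.304 and 0.511 TPM, under the filter, and Ifitm7 was listed at 0 in all 6 libraries.

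The start regions of Ifitm2 and Ifitm3 are shown as 29-base stretches. They were chosen because these genes moved differently and the stretches share their opening letters. Both read on the minus strand, with the core in capitals and, where the longer form is present, all of it.
Ifitm2 (chr7:140955979-140956007, minus strand): GAAAAGGAAAttgctagagaaagggcggg
Ifitm3 (chr7:141010714-141010742, minus strand): GAAAAGGAAACTtctgaGAAACCGAAACT

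Of the 29 positions 16 were identical. Both stretches were cut to begin at a core, so its fixed letters had to match. The count does not show that the start regions are related. The stretch of Ifitm2 begins 46 bases before the RefSeq start and holds 1 core without the longer form. That of Ifitm3 begins at base 3, counting the start as base 1, and holds 2 cores, both in the longer form. The letters TTCNNNGAA, a form of the gamma-activated site, lie at bases 14 to 22 by the same count. These letters overlap the end of the first longer form and the start of the second. TTCNNNGAA occurred in 8.3% of all windows. The window of Ifitm1 held none of the searched letters. It was set around a RefSeq start 48 bases after that of the table's row.

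E4BP4 is known to bind an element called the D-box, searched here as TTATGTAA or TTACGTAA on both strands and found in 1.06% of windows. Of the 8 members only Ifitm6 held it, from 93 to 86 bases before the start, and its run is shown with the D-box in capitals.
Ifitm6 (chr7:141016909-141017142, minus strand): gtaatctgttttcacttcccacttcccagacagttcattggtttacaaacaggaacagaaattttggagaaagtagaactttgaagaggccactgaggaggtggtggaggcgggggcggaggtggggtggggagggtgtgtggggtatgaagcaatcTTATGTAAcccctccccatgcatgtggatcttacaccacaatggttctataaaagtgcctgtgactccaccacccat

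**Figure D2:**
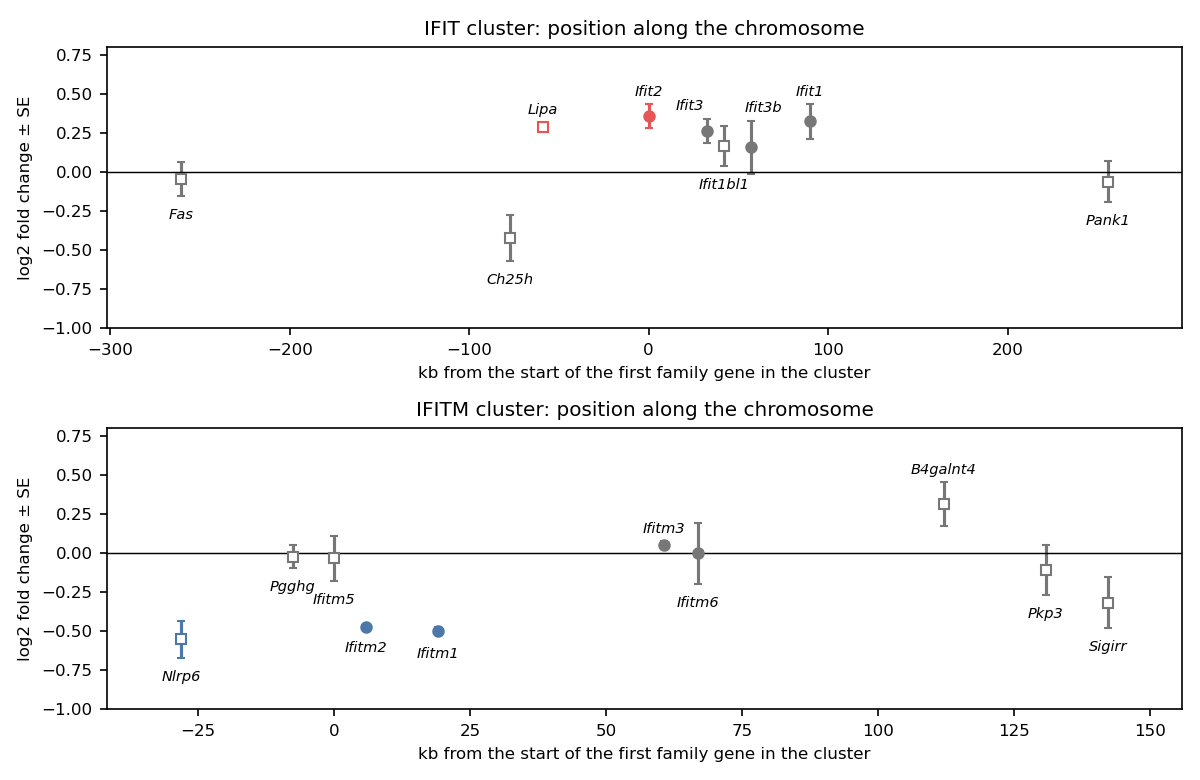
Log2 fold change ± SE (vertical axes) of the tested genes in and around the IFIT and IFITM clusters against distance in kb from the start of the first family gene, Ifit2 above and Ifitm5 below. Filled circles are members, open squares other genes, red called higher, blue called lower and grey not called: Ifitm2 and Ifitm1 lie at -0.47 and -0.50, and Ifitm3 and Ifitm6, farther along, at 0.05 and -0.00.

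Genes beside the clusters were listed to see whether the differences stopped at the families. Lipa, the lysosomal acid lipase gene ahead of Ifit2, was at 90.0 and 110.1 TPM and rose by 0.29 ± 0.0272 SE on the log2 scale (limma adjusted p = 0.000265). Ch25h, which makes an oxysterol and is itself an interferon target, differed by -0.43 ± 0.147 SE (limma adjusted p = 0.0783). Fas and Pank1 differed by -0.05 and -0.06 (limma adjusted p = 0.804 and 0.781). Thus 1 of the 4 tested genes flanking the IFIT cluster was called, where 8.71% of all tested genes were called higher and 13.2% lower. Around the IFITM cluster, Nlrp6, an inflammasome sensor known from gut epithelium, was at 3.79 and 2.26 TPM and fell by 0.55 ± 0.118 SE (limma adjusted p = 0.0130). Pgghg, B4galnt4, Pkp3 and Sigirr were not called, with differences of -0.02, 0.31, -0.11 and -0.32 (lowest limma adjusted p = 0.162). Slc16a12, Mir107 and BC024386 were under the filter. With so few flanking genes, the counts do not show whether the differences stopped at the families.

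The pathway that feeds the families was described from lists of genes by role. The ligands were near the floor. Ifnb1, interferon beta, had 0, 1.12 and 0 TPM in the wild type libraries against 1.59, 2.02 and 2.65 TPM in the transgenic ones, from 11 and 62 reads per group. The groups did not overlap, and Ifnb1 rose by 1.25 ± 0.305 SE (limma adjusted p = 0.0232). Leaving out wild type replicate 1 or 3 ended the call (limma adjusted p = 0.0699 and 0.0685), as did leaving out transgenic replicate 2 or 3 (0.0684 and 0.0818). Ifng, interferon gamma, which T and NK cells make, was at 0.270, 0.195 and 0.331 TPM and at 1.77, 1.22 and 1.19 TPM. It rose by 0.91 ± 0.160 SE (limma adjusted p = 0.00553), from 12 and 65 reads per group. Ifna2 and Ifna4 were listed at 0 in all libraries. Ifnar1, a chain of the type I receptor, averaged 60.0 ± 0.916 and 58.8 ± 0.781 TPM (SD, n = 3 each), with a limma adjusted p of 0.550. Ifngr1, a chain of the gamma receptor, averaged 213 and 201 TPM (limma adjusted p = 0.1002). Ifnb1 and Ifng passed the filter through the transgenic group alone, so they could be tested only where they were higher. None of the 5 ligand and receptor genes that passed it in both groups was called.

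Of 8 genes for JAK kinases, the factor STAT2 and IRFs 4 rose and 0 fell, with a median of 0.19. Shares called over all tested genes were 8.71% higher and 13.2% lower, to be set beside this list and those that follow. Stat2 was at 26.3 ± 0.792 and 35.5 ± 0.572 TPM (SD, n = 3 each). Irf9, its DNA-binding partner, rose from 33.2 to 41.8 TPM, Irf7 from 35.0 to 46.3 TPM and Irf1 from 107 to 149 TPM (highest limma adjusted p of the 4 = 0.0123). The kinase genes Jak1, Jak2 and Tyk2 and the factor gene Irf3 were the 4 not called, and are named here with their values known. Of 6 inhibitors 1 rose and 3 fell, with a median of -0.11. Socs1, an inhibitor of JAK kinases, was at 8.68 ± 0.946 and 5.76 ± 0.810 TPM (SD, n = 3 each) and fell by 0.52 (limma adjusted p = 0.0135). Socs3 fell by 0.14 and the phosphatase gene Ptpn6 fell by 0.13 (limma adjusted p = 0.00180 and 0.0155). The call of Socs3 was lost in 1 alternative, limma without trend (0.0606), and that of Ptpn6 in 4 (0.0501 to 0.102), among them those without wild type replicate 2 or 3 and without transgenic replicate 3. Usp18, which ends type I receptor signalling and is itself an interferon target, was at 5.71 ± 0.922 and 7.52 ± 0.277 TPM (SD, n = 3 each). It rose by 0.35 (limma adjusted p = 0.0483), and the call was lost in 8 of 15 alternatives (highest adjusted p = 0.136), among them each library left out in turn except wild type replicate 1.

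Of 11 RNA and DNA sensing genes 7 rose and 0 fell, with a median of 0.26. Zbp1, a sensor of Z-form nucleic acid, was at 27.0 and 39.8 TPM, Ddx58, which encodes RIG-I, at 10.7 and 14.9 TPM, and Tlr9 at 33.3 and 43.6 TPM. Among the targets the rise was broad. Of 25 type I interferon targets outside the families 22 rose and 0 fell, with a median of 0.41, and of 15 interferon-gamma targets 13 rose and 0 fell, with a median of 0.40. Oas2, an antiviral nucleotide synthetase, was at 22.4 ± 0.119 and 35.8 ± 0.493 TPM, Rtp4 at 13.6 ± 0.770 and 24.7 ± 1.23 TPM, and Ifi27l2a at 99.4 ± 2.50 and 175 ± 17.4 TPM (SD, n = 3 each). Isg15, a ubiquitin-like modifier, was at 47.2 ± 1.07 and 62.7 ± 8.45 TPM (SD, n = 3 each) and rose by 0.39 (limma adjusted p = 0.0156), a call lost without transgenic replicate 2 (0.0585). Of the gamma targets, Ciita, the class II transactivator, rose by 0.55, the peptide transporter gene Tap1 by 0.52 and Gbp2 by 0.58. Over the 72 tested pathway genes 49 rose and 3 fell, with a median of 0.33, beside 8.71% and 13.2% over all genes. Of the 70 that passed the filter in both groups 47 rose and 3 fell. The IFIT differences, 0.16 to 0.36, lay within the range of the type I targets, 0.07 to 0.92. Ifitm1 and Ifitm2, at -0.50 and -0.47, lay below the lowest of those 25, Ifi35 at 0.07 ± 0.053 SE. Ifitm3, at 0.05 ± 0.024 SE, and Ifitm6, at -0.003 ± 0.197 SE, could not be set apart from Ifi35 given these SEs. The difference between the families and the targets was not tested.

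**Figure D3:**
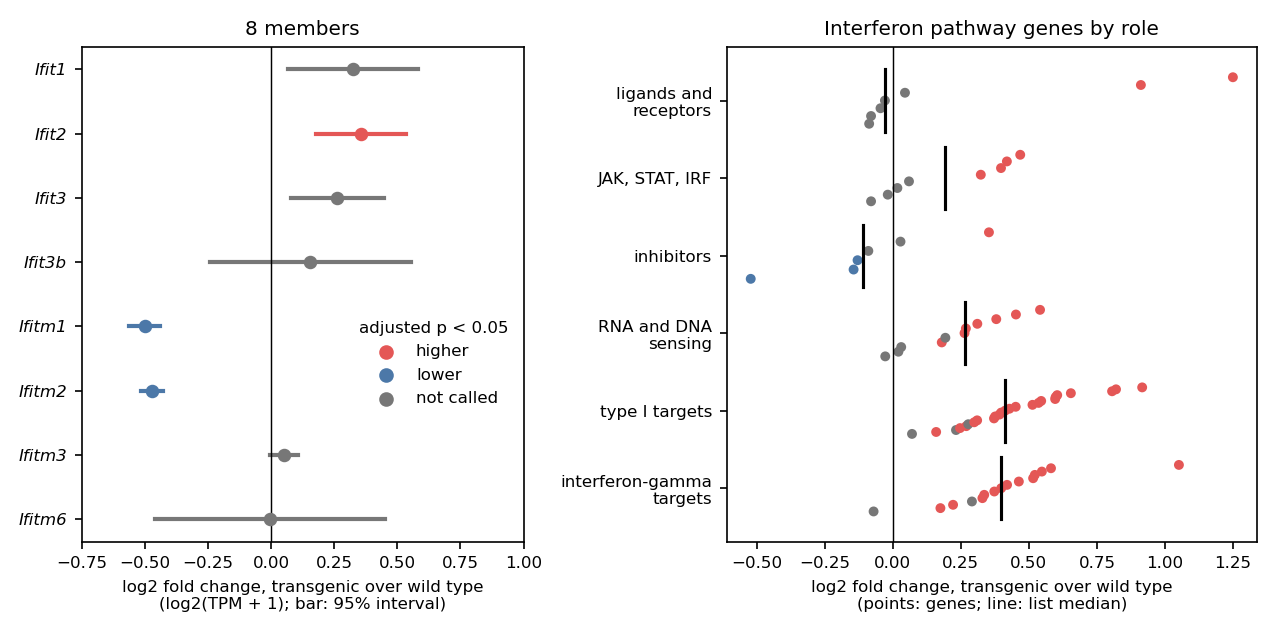
Left, log2 fold change with its 95% interval (horizontal axis, transgenic over wild type) of the 8 members, with Ifit2 called higher (red), Ifitm1 and Ifitm2 called lower (blue) and the others not called (grey). Right, each tested pathway gene by role (points, same colours) with the list median (line): 22 of 25 type I targets and 13 of 15 interferon-gamma targets are called higher, and 3 of 6 inhibitors lower. Of all 12633 tested genes 8.71% are called higher and 13.2% lower.

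Genes with the most similar course over the 6 libraries were found by the smallest root mean square difference of log2(TPM + 1) less its wild type mean, over 8822 genes of at least 5 TPM. For Ifit1 they were Usp18 (0.0568 log2 units), Tacc2 (0.0581) and Iqce (0.0585). For Ifit2 they were Itgb7, an integrin chain of gut leukocytes (0.0326), Ddit3, a stress transcription factor gene (0.0360), and Trp53i13 (0.0419). Thus 1 of these 6 genes, Usp18, was in the pathway lists. For Ifitm1 they were the collagen genes Col3a1 (0.0285) and Col1a2 (0.0290), and Ms4a6d, a myeloid membrane protein gene (0.0294). Ms4a6d was at 285 and 206 TPM, Col3a1 at 51.9 and 36.1 TPM. For Ifitm3 they were Lims1 (0.00780), Sem1 (0.0121) and Rab8b (0.0122), none of them called. Values were set to the wild type mean, so a small distance mostly reflects a group difference of similar size. Col3a1, Col1a2 and Ms4a6d differed by -0.51, -0.52 and -0.47 (log2), beside -0.50 for Ifitm1. Whether such genes share a source with the members was not tested.

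Many markers of other cells moved with the fall of Ifitm1 and Ifitm2. Over all tested genes 8.71% were called higher and 13.2% lower. Of 12 neutrophil markers 8 were tested, and 6 of them fell and 0 rose. Their summed level was 1013 to 1041 TPM in wild type and 426 to 479.7 TPM in transgenic libraries, with the granule genes Mpo, Elane, Camp and Ltf under 1 TPM. S100a8, at 409 and 154 TPM, and S100a9, at 439 and 187 TPM, made most of that sum. Csf3r and Cd177 were not called. Of 10 epithelial markers 7 fell and 0 rose, with sums of 1031 to 1039.6 and 570.4 to 579 TPM. Car1, at 497 and 164 TPM, was the largest part of that sum, and Krt18, Cdh1 and Muc2 were not called. Fibroblasts and smooth muscle had 10 tested markers, and 5 fell and 0 rose, with sums of 165 to 167 and 119.9 to 124 TPM. Of the 5, Pdgfrb passed the filter through the wild type group alone. In transgenic libraries that last sum was at 72.2% to 74.5% of the wild type mean, beside 69.4% to 71.8% for Ifitm1 and 70.7% to 73.5% for Ifitm2. Of 9 endothelial markers 8 were tested, and 6 fell and 0 rose, with sums of 53.9 to 57.7 and 34.2 to 38.5 TPM and Tek under 1 TPM. Kdr, Esam and Emcn, 3 of the 6, passed the filter through the wild type group alone and could be tested only where they were lower, as did Cldn5, which was not called. Of the 4 that passed it in both groups 3 fell. Monocyte markers gave 2 higher and 3 lower of 8, with sums of 582 to 601 and 565 to 578 TPM. Macrophage markers gave 6 higher and 3 lower of 12. No marker on these lists was at 0 in all libraries. The part of these cells in the fall of Ifitm1 and Ifitm2 was not tested.

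**Figure D4:**
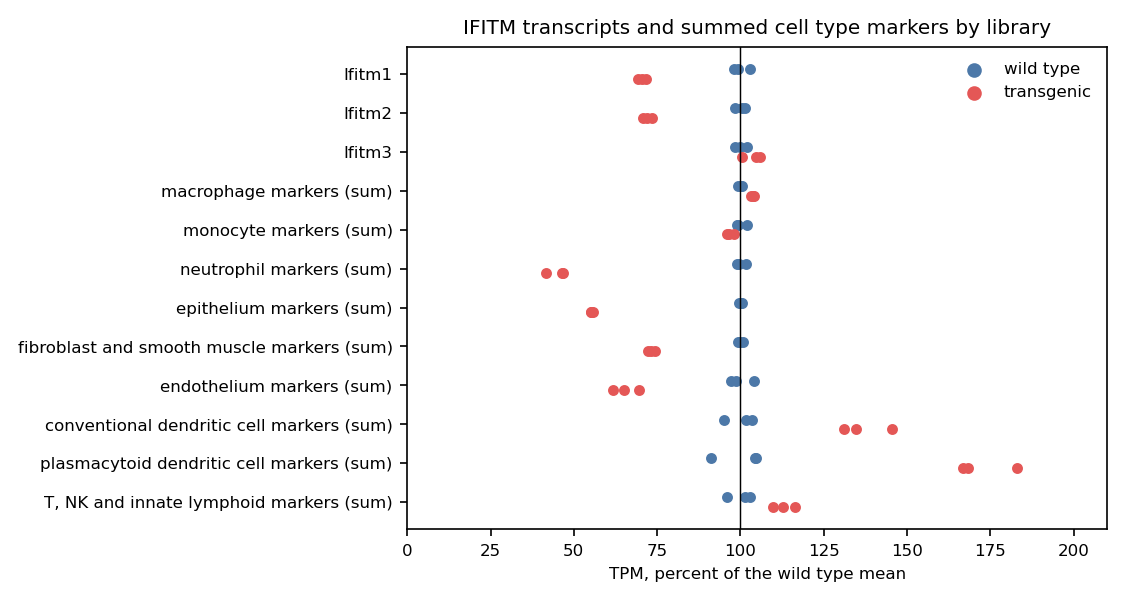
TPM of Ifitm1, Ifitm2 and Ifitm3 and summed TPM of cell type markers in each library, as a percent of the wild type mean (horizontal axis; blue wild type, red transgenic). Ifitm1 and Ifitm2 lie at 69.4% to 73.5% in transgenic libraries, neutrophil, epithelial, fibroblast and endothelial sums at 41.6% to 74.5%, macrophage markers at 103% to 104%, and dendritic and lymphoid sums above 100% of the wild type mean. S100a8 and S100a9 make most of the neutrophil sum, and Car1 is the largest part of the epithelial sum. Klk1 and Batf3 are the largest parts of the plasmacytoid and conventional dendritic cell sums. C1qa, C1qb and C1qc make most of the macrophage sum, and Cd4 is the largest part of the lymphoid sum. Single macrophage markers are called in both directions.

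Some markers on other lists moved with the IFIT genes and their pathway, where 8.71% of all tested genes were called higher. Of 6 plasmacytoid dendritic cell markers 5 were tested, and 3 rose and 0 fell, with sums of 26.7 to 30.7 TPM in wild type and 48.9 to 53.6 TPM in transgenic libraries and Ccr9 under 1 TPM. Siglech and Cox6a2, 2 of the 3, passed the filter through the transgenic group alone, and of the 3 that passed it in both groups 1 rose. That gene, Klk1, at 14.3 and 30.9 TPM, was the largest part of the sum and of its rise. Spib and Ly6d were not called. Plasmacytoid dendritic cells are known as strong producers of type I interferon. Of 8 conventional dendritic cell markers 7 were tested, and 3 rose and 0 fell, with sums of 68.1 to 74.1 and 93.8 to 104 TPM and Xcr1 under 1 TPM. Clec9a and Zbtb46 passed through the transgenic group alone, and of the other 5 tested 2 rose. Batf3, at 36.3 and 57.3 TPM, was the largest part of the conventional dendritic cell sum. Of 11 T, NK and innate lymphoid markers with a row 9 were tested, and 4 rose and 0 fell, with sums of 114 to 122 and 131 to 138 TPM and Ncr1 and Klrb1c under 1 TPM. Klrk1, 1 of the 4, passed through the transgenic group alone. Cd4, at 87.4 and 89.6 TPM, was the largest part of that lymphoid sum. Cd4, Cd3d, Cd3e, Cd3g and Il7r were not called. Of 7 B and plasma cell markers 1 rose and 0 fell, and of 6 erythrocyte markers the 4 tested all rose. The part of these cells in the IFIT and pathway results was not tested.

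Over the 15 alternatives Ifitm1 ranged from -0.51 to -0.36 and Ifitm2 from -0.49 to -0.43. Ifit2 ranged from 0.21 to 0.43, Ifit1 from 0.10 to 0.44 and Ifit3 from 0.10 to 0.31. The lowest of each of these IFIT values came from the authors' log2 values, which were regularized and so lie closer together. Ifit3b ranged from 0.02 to 0.31 and was never called. In the authors' deposited table, too, Ifit2 was called higher and Ifitm1 and Ifitm2 lower, where 11.2% and 13.2% of its 20884 genes with a fold change were called higher and lower. There Ifit1 was at 0.33 (adjusted p = 0.0840), Ifit3 at 0.33 (0.0615), Ifit3b at 0.33 (0.557), Ifitm3 at -0.00 (0.966) and Ifitm6 at -0.10 (0.840). The authors' deposited table comes from the same 6 libraries and is not independent of the values here.

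**Figure D5:**
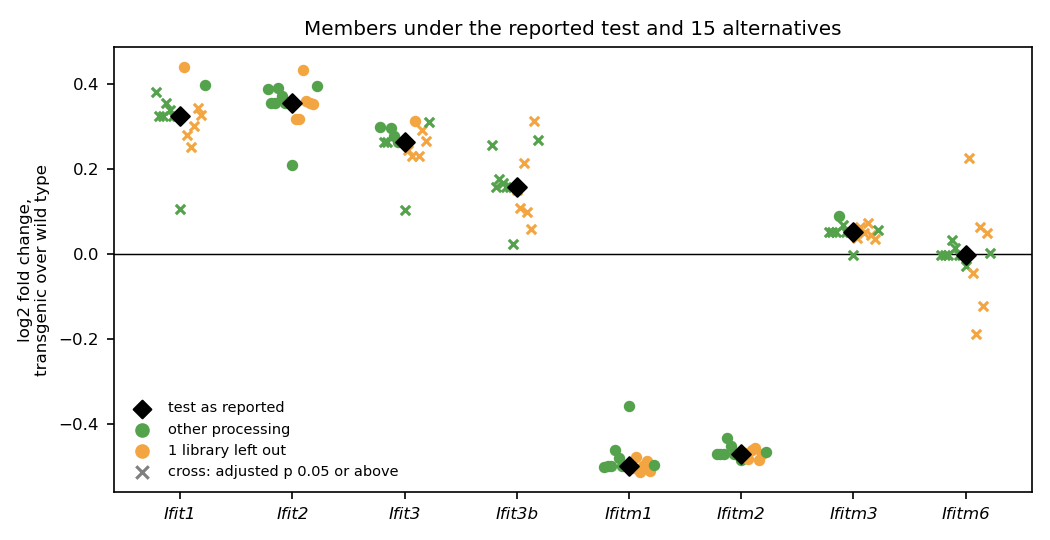
Log2 fold change (vertical axis, transgenic over wild type) of each member in the test as reported (black diamond) and in the alternatives, with processing changed (green) or 1 library left out (orange); circles have an adjusted p below 0.05 and crosses do not. Ifitm1 and Ifitm2 stay between -0.51 and -0.36 and are called throughout, Ifit2 is called throughout, and Ifitm6 lies on both sides of 0.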

How the data were processed

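Per the labels' protocols, macrophages were sorted from the colonic lamina propria and libraries were made from the polyadenylated part of 20 ng of RNA; the kit is not described there as keeping strand. Per the submitters' processing notes, bcl2fastq, STAR, HOMER 4.11.1, DESeq2 and mm10 were used; their order and settings were not given in the sources used here. The authors deposited TPM per library for 25124 rows, each 1 RefSeq transcript, and columns sum to 543612 to 545319 TPM. A second deposited table gives, for 24421 rows, regularized log2 values per library and the authors' log2 fold change, p-value and adjusted p-value.

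The members and all lists were chosen with earlier results of these data known. Genes whose mean reached 1 TPM in either group were tested by limma-trend (R 4.3.3, package limma 3.58.1) on log2(TPM + 1) with genotype as the model and all 6 libraries, two-sided, Benjamini-Hochberg adjusted over 12633 genes. A fold change on this scale understates that of genes with low values. Tests were checked on simulated data. The product of TPM and transcript length came in whole steps in each library, within 0.1 reads, for 100% of values of up to 1000 reads, which gave read numbers, 79.5% to 81.3% of the stated ones. A count of 0 allows 3 reads, or 0.113 to 0.122 TPM for 2000 bases, for counting error only.

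Named genes are the members, other rows of the 2 families, Nfil3, up to 3 members with the lowest p of each pathway list, with Ifnb1, Ifng, Ifnar1, Stat2, Irf9, Irf7, Usp18 and Isg15 whatever their p, up to 3 rows on each side of each cluster, and the 3 genes most like Ifit1, Ifit2, Ifitm1 and Ifitm3. There were 6 pathway and 11 marker lists; 1 gene of the kinase and factor list is not reported here and is in none of its counts. Rigi, Mb21d1 and Sting1 have no row under these names and are in the table as Ddx58, Cgas and Tmem173; Trbc1 and Trbc2 have none. Alternatives were a pseudocount of 0.1, no filter, a filter at 5 TPM, upper-quartile and median-of-ratios scaling, no trend, a replicate block, the authors' log2 values, each library left out, and, chosen after seeing the data, limma-voom on the recovered reads. Same-numbered libraries did not deviate together, so they were not treated as pairs. Shared sequence was counted in 50-base windows of annotated transcripts, and promoter windows of 300 bases came from RefSeq. No protein sequences were used here.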

Additional observations from a re-analysis of the deposited data

How the results depend on the processing

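Of 119 member values over the 15 alternatives 104 kept direction and call, 8 gained a call and 7 changed sign. The calls of Ifit2, Ifitm1 and Ifitm2 were kept in all 15. Ifitm6 turned positive with upper-quartile scaling (0.0329), median-of-ratios scaling (0.0144) and limma-voom on recovered reads (0.00116), and without 1 of 3 libraries (-0.19 to 0.22 over the 6 left out). Ifitm3 turned with the authors' log2 values (-0.00229) and Ifnar1 with upper-quartile scaling (0.00832). For 23 other named genes 322 of 343 values kept direction and call.

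Members called higher numbered 1 as reported, 2 with a pseudocount of 0.1, median-of-ratios scaling, limma without trend and limma-voom, 3 with upper-quartile scaling, and 1 to 2 with 1 library left out. Of all tested genes 1100 were higher and 1666 lower. Upper-quartile scaling gave 1425 and 1315 and moved the difference between groups by 0.038 (log2), and median-of-ratios scaling by 0.018. Leaving out 1 library gave 704 to 883 higher, 704 without transgenic replicate 2 and 721 without replicate 3, and 1231 to 1373 lower. The authors' log2 values gave 2783 lower. Pathway genes lower numbered 3 as reported, 1 without trend and 6 with the authors' log2 values. The cause of these moves was not tested.

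With the replicate block, 922 genes were higher and 1457 lower, and 1 member was higher and 2 were lower; the libraries share only a number. Residuals of same-numbered libraries correlated at -0.01, -0.04 and 0.03, and not every library correlated best with its own number. A change in Ifit3b, at 21 to 38 reads, is limited by depth; 3 libraries a group limit all tests.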
